A study of Mus musculus with 11 samples.

Results

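Runx3 and Brn3a were often found on the same distal DNA in TrkC neurons, and in 920 of these places the Runx3 peak held no RUNX word and the Brn3a peak no Brn-family motif. These 920 regions are described here. They were selected on the deposited lists as nuclear Runx3-list peaks that shared at least 1 bp with a Brn3a-list peak, had their centre more than 1000 bp from the transcription start site (TSS) of every transcript annotated as protein-coding, held no RUNX binding site (RBS, the word TGYGGY, where Y is C or T), and overlapped no Brn3a-list peak that the authors had marked with the Brn-family motif (V$BRNF). They made up 16.2% of 5677 co-bound distal peaks and 3.55% of 25883 nuclear Runx3-list peaks, and the Brn3a list held 32887 peaks. An interval around Runx3 itself on chromosome 4 was left out, where 12 more peaks met the other conditions.

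CUT&RUN, in which an antibody guides micrococcal nuclease to its target and the released DNA is sequenced, had been run on dorsal root ganglion (DRG) cells of mouse embryos at E12.5. All embryos carried a Runx3 bacterial artificial chromosome with green fluorescent protein (genotype Runx3-BAC-GFP-CB6), and the sorted GFP-positive cells were labelled TrkC proprioceptive neurons, so every library came from transgenic cells chosen by this GFP signal. There were 3 libraries with anti-Runx3, 4 with anti-Brn3a, 3 with anti-H3K27Ac and 1 with normal rabbit serum. The lists hold positions only, with replicates merged, so the tests here cover the counting of peaks and not the spread between libraries, and the labelled cell type could not be checked against expression markers.

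Proprioceptive TrkC neurons depend on the transcription factor (TF) Runx3, and sensory neurons in general on Brn3a, a TF with a POU domain encoded by Pou4f1. Each contacts DNA through its own short motif. A TF can also be recovered on DNA that lacks its motif. GC boxes bind SP and KLF factors, E-boxes bind basic helix-loop-helix (bHLH) factors, CTCF binds insulators and the anchors of chromatin loops, and Isl1, a LIM-homeodomain TF, works beside Brn3a in sensory neurons.

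The regions nearest to genes of the sensory neuron program show what such DNA looks like. They were taken by a rule, as the region nearest to the TSS of each of 13 chosen genes, of which 8 had one in their regulatory domain. Capitals mark words of other factors on either strand, namely the GC box, the symmetric and proneural E-boxes, the EBF, CRE and MEIS words, an Isl1-type word and the longer CTCF and RFX words, which are spelled out or named with the results below. All are the plus strand of GRCm38, 5′ to 3′.
Runx1, chr16:92698789-92698907: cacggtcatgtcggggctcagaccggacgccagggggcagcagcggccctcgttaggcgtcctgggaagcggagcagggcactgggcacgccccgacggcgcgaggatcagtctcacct
Ntrk3, chr7:77992307-77992388: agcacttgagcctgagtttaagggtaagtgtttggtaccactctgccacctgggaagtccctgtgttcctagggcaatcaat
Isl1, chr13:116712360-116712556: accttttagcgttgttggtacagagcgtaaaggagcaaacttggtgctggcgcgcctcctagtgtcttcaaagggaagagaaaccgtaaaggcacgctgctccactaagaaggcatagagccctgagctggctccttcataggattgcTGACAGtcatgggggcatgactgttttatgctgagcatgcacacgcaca
Ebf1, chr11:45396158-45396421: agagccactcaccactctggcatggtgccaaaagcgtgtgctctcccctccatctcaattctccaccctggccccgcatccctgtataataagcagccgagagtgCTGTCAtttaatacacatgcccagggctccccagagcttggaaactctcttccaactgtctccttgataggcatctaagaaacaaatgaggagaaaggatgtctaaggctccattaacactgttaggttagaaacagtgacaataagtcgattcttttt
Sox11, chr12:27357167-27357291: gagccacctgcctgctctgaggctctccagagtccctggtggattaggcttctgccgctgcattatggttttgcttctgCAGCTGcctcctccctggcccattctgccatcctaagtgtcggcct
Tle3, chr9:61328275-61328395: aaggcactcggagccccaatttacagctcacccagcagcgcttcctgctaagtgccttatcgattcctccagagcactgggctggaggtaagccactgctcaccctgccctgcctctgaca
Ntrk2, chr13:59285692-59285928: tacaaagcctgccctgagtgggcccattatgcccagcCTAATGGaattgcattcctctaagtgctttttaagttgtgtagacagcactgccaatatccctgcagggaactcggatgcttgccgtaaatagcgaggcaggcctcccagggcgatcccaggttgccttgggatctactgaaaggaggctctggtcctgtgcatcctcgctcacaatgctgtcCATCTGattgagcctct
Ret, chr6:118366362-118366509: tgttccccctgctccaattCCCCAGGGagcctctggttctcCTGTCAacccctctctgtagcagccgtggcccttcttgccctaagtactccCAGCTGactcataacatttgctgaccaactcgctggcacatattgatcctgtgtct

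The Runx1 region lay in an intron of Runx1, 1.52 kb from the nearest annotated Runx1 TSS, and was 71.4% G or C, the highest of the 8. The other 7 were intergenic. The Sox11 region lay 14.7 kb upstream of its TSS, the Tle3 region 44 kb upstream, and the Ret region 169 kb upstream. The regions assigned to Isl1, Ntrk2, Ntrk3 and Ebf1 lay between 403 and 779 kb from the TSS that set each gene's domain. For Ntrk3 another annotated TSS of the gene was nearer, at 585 kb. For Isl1, Ntrk2, Ebf1 and Ret another gene's TSS was nearer (Parp8, Agtpbp1, Clint1 and Bms1), so the assignment is by position only. The regions of Runx1, Ntrk3 and Tle3 held none of the marked words, and that of Ret held 3.

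Further regions, chosen after their values were seen, carry words on which the results below turn, except that of Snhg12. Among them are a region 100 kb upstream of Gap43 with 2 CAGCTG words and 1 CCATTAG word, and a region 2.97 kb upstream of Prdm12. The rest are 1 region for each of 5 words, and the region at the start of the noncoding gene Snhg12, which held no marked word. The GC box region of 349 bp and the CRE region of 325 bp are printed as their central 300 bp only.
Gap43, chr16:42440901-42441076: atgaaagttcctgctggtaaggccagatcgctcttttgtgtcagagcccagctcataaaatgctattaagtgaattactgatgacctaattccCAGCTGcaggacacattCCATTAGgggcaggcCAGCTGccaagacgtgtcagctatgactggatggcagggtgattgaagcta
Prdm12, chr2:31636979-31637154: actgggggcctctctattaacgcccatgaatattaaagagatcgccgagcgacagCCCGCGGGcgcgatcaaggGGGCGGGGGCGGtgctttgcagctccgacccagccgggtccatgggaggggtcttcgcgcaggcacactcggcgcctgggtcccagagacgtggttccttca
CTCF word, intron of Gm29050, chr17:5397587-5397667: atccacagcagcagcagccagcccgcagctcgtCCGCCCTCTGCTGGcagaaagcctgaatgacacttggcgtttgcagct
GC box, start of Gm11205, chr11:79704412-79704711: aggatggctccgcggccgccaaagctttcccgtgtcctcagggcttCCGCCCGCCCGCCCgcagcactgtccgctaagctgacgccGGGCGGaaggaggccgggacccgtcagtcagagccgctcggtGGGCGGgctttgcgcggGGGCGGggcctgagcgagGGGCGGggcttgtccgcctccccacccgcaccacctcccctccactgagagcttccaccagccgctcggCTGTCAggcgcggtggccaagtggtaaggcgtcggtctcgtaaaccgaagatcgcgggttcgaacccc
CCATTAG, intron of Lsamp, chr16:40113592-40113698: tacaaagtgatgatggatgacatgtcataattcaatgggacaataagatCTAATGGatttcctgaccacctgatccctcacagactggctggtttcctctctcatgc
RFX, intron of Rundc3a, chr11:102395377-102395661: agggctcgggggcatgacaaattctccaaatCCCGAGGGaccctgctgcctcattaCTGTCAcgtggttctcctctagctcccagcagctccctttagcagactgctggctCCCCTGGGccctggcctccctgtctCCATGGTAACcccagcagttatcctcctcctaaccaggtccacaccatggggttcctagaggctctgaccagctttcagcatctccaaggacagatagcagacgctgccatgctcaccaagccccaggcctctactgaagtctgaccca
CRE, intron of Itpkb, chr1:180387499-180387798: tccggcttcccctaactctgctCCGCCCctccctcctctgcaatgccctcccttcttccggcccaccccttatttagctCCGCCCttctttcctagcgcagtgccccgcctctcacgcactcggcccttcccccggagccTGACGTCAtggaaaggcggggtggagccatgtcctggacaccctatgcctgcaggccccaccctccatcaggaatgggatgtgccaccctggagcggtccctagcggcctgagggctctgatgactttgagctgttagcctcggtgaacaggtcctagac
Snhg12, exon of Snhg12, chr4:132308571-132308679: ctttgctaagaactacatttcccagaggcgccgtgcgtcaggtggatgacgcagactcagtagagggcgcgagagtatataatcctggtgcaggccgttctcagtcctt

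The regions were narrow. At the median their Runx3 peaks spanned 159 bp, with quartiles at 117 and 217 bp, against 227 bp in the 4757 co-bound distal peaks with at least 1 motif and 113 bp in 3691 distal Runx3-list peaks that had no RBS and touched no Brn3a peak. Their median GC content was 53.9%, against 49.0% in the motif-bearing peaks. Width and base composition are tied to the selection, since a longer peak holds more words and the Brn motif is rich in A and T, so these values were not tested. The centres of the Runx3 and Brn3a peaks were close, with a median of 28 bp between their centres and a median of 126 shared bp. The centres were within 25 bp in 45.2% of the regions, against 37.7% of the motif-bearing peaks, while 1 peak lay wholly inside the other in 53.4% of the regions, against 59.9%. Peak width differs between the classes, and its part in these shares was not tested.

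Of the 920 regions, 917 overlapped 1 Brn3a peak and 3 overlapped 2. The 3 least overlapping regions shared 4, 6 and 8 bp. The 3 regions nearest to the distance limit had TSSs at 1004, 1026 and 1035 bp, and the 3 co-bound motif-free peaks just under it had TSSs at 985, 987 and 997 bp. Below the limit lay 1209 co-bound promoter peaks with neither motif. The Brn3a peak, which can reach beyond the Runx3 peak, held a TGYGGY word in 96 regions, and the word TTAATGA stood in 4 Runx3 peaks and 1 Brn3a peak, which left 821 regions with none of these words in either peak. TTAATGA is 1 exact word and is not the authors' V$BRNF call.

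The regions lay closer to protein-coding TSSs than the motif-bearing peaks as a whole did. Their median distance to the nearest protein-coding TSS was 32.6 kb, against 57 kb in the motif-bearing peaks. Within 10 kb of such a TSS lay 24.8% of the regions (228 of 920), against 14.7% of the motif-bearing peaks (699 of 4757), an odds ratio of 1.91 (95% interval 1.61 to 2.27, adjusted p = 7.85e-12, Fisher's exact test). Beyond 100 kb lay 21.1% of the regions, against 34.4% of the motif-bearing peaks (odds ratio 0.51, 0.43 to 0.60, adjusted exact p = 1.88e-14). The shares were much like those of the Runx3-list peaks without RBS and without Brn3a, 25.2% of which lay within 10 kb (odds ratio 0.98, 0.83 to 1.16) and 20.6% beyond 100 kb (odds ratio 1.03, 0.86 to 1.23). Against the 1134 co-bound peaks with a RUNX site only, the share within 10 kb did not pass the test (20.6%, adjusted exact p = 0.0666), while the share beyond 100 kb did (28.0%, odds ratio 0.69, adjusted p = 0.00119).

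**Figure D1:**
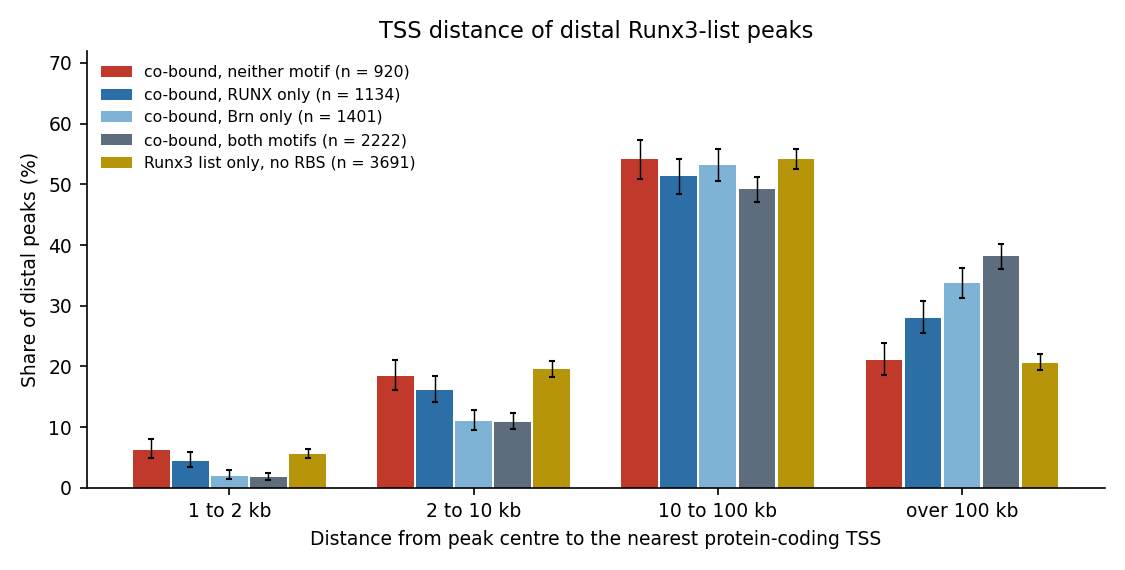
Share of distal Runx3-list peaks (y axis, percent) by distance from the peak centre to the nearest protein-coding TSS (x axis), for co-bound peaks with neither motif (red), with a RUNX site only, with a Brn motif only, with both, and for Runx3-list peaks with no RBS and no Brn3a peak; bars with 95% Wilson intervals. Peaks with neither motif put 6.30% within 2 kb and 21.1% beyond 100 kb, against 1.80% and 38.1% of peaks with both motifs.

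Some of the regions were distal only with regard to protein-coding genes. The start of a transcript not annotated as protein-coding lay within 1 kb of 111 regions (12.1%, 95% interval 10.1% to 14.3%), against 6.08% of motif-bearing peaks (odds ratio 2.12, 1.68 to 2.67, adjusted exact p = 8.75e-09). For the starts of noncoding genes alone the shares were 8.59% of the regions and 4.46% of the motif-bearing peaks (odds ratio 2.01, 1.54 to 2.63, adjusted exact p = 5.51e-06). Of these 79 regions, 39 had their centre within 100 bp of the start, which is 4.24% of the 920 regions (3.12% to 5.74%), against 1.24% of the motif-bearing peaks (0.96% to 1.60%), 2.65% of peaks with a RUNX site only (1.86% to 3.75%) and 2.11% of Runx3-list peaks without RBS and Brn3a (1.70% to 2.63%), a count made after the result was seen and not tested. The nearest noncoding transcript was most often a lincRNA (40 of 111). Among the 79 were starts of snoRNA host genes, namely Snhg12, whose start lay 2 bp from the peak centre, Snhg6 at 24 bp and Snhg15 at 65 bp. Others were Dleu2, host of the miR-15a and miR-16 cluster in human, at 11 bp, Ftx, a long noncoding RNA of the X-inactivation centre, at 16 bp, and Dnm3os, host of miRNAs in an antisense transcript of Dnm3, at 77 bp. A tRNA gene of RefSeq lay within 300 bp of 4 of the 920 regions, of 2 of the 4757 motif-bearing peaks and of 8 of the 3691 Runx3-list peaks without RBS and Brn3a. Against the peaks with a RUNX site only (8.99%) and the Runx3-list peaks without RBS and Brn3a (11.1%), the share with a noncoding transcript start did not pass the test (adjusted exact p = 0.0665 and 0.496).

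No difference in placement inside or outside genes passed the test. Introns held 51.4% of the regions, against 51.2% of motif-bearing peaks (odds ratio 1.01, 0.88 to 1.16), intergenic DNA held 42.6%, against 44.4%, and exons of any transcript held 5.98%, against 4.39% (odds ratio 1.38, 1.02 to 1.88, adjusted exact p = 0.098). Coding sequence held 8 regions. Over 50% repeat-masked sequence was found in 2 regions (0.22%) and in 5 motif-bearing peaks (0.11%, adjusted exact p = 0.465). Among the 3691 Runx3-list peaks without RBS and Brn3a it was found in 51 (1.38%, odds ratio 0.16, 0.04 to 0.64, adjusted exact p = 0.0049).

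Brn-motif peaks in the neighbourhood were fewer than around peaks with a Brn motif only. Another Brn3a peak with V$BRNF lay within 10 kb of 32.1% of the regions, against 36.9% of motif-bearing peaks (odds ratio 0.81, 0.69 to 0.94, adjusted exact p = 0.017). The share was 39.6% for peaks with a Brn motif only (odds ratio 0.72, adjusted exact p = 0.00087) and 33.2% for peaks with a RUNX site only (odds ratio 0.95, 0.79 to 1.15, adjusted p = 0.717), which did not pass. The call against motif-bearing peaks was lost in 3 alternatives, namely with 1 region per 10 kb (odds ratio 0.90), among wider Runx3 peaks (0.82), and within strata of width and GC content (0.83). Compared with the Runx3-list peaks without RBS and Brn3a, the regions more often had such a neighbour (19.4% of those peaks, odds ratio 1.96, 1.67 to 2.31, adjusted exact p = 2.16e-14) and more often another co-bound region within 10 kb (22.9%, against 13.8%, odds ratio 1.86, 1.55 to 2.23, adjusted p = 3.38e-10). The other co-bound classes shared this second trait, with 21.6% of motif-bearing peaks (odds ratio 1.08, 0.91 to 1.28, adjusted exact p = 0.496). The share was 20.5% for peaks with a RUNX site only and 23.1% for peaks with a Brn motif only, neither past the test. A second Runx3 peak with RBS within 10 kb was found for 32.0% of the regions and 29.9% of motif-bearing peaks (odds ratio 1.10, 0.95 to 1.28), which did not pass the test.

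**Figure D2:**
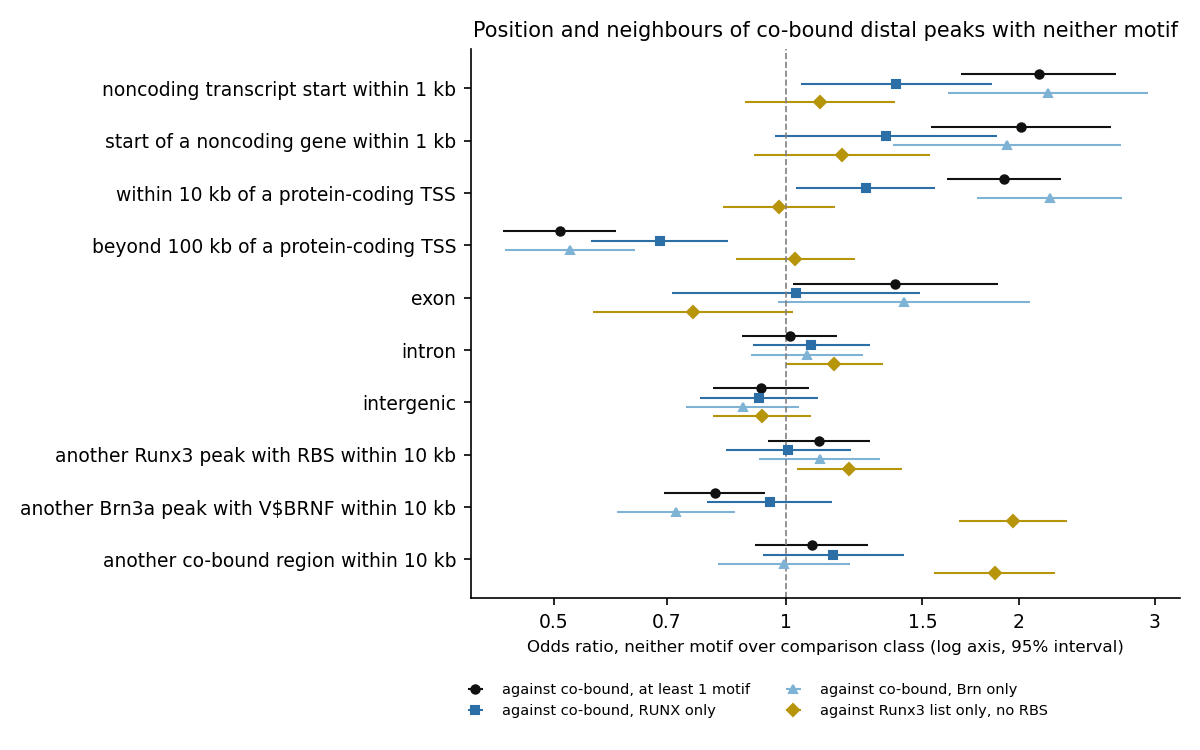
Odds ratios (log axis, with 95% intervals) of positional features in the 920 co-bound distal peaks with neither motif over each of 4 comparison classes, marked by symbol. Points right of the dashed line at 1 are features more frequent in peaks with neither motif, such as a protein-coding TSS within 10 kb, at 1.91 over the motif-bearing peaks and 0.98 over Runx3-list peaks without RBS and Brn3a.

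For the words TGYGGY and TTAATGA, no difference just beside the peaks passed the test. In the 200 bp outside each edge of the Runx3 peak, TGYGGY stood beside 46.8% of the regions and in 46.4% of the same windows moved by 2000 bp (odds ratio 1.02, 0.87 to 1.2, adjusted exact p = 0.93), and beside 43.5% of the peaks with a Brn motif only (odds ratio 1.15, 0.97 to 1.35, adjusted p = 0.46). TTAATGA stood outside the Brn3a peak in 5.98% of the regions, in 5.82% of the moved windows and beside 5.82% of the peaks with a RUNX site only (odds ratios 1.03 and 1.03, adjusted exact p = 0.93 for both). The intervals leave room for differences of up to 1.44 and 1.49 times in the odds for TTAATGA.

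Words of other factors were gathered in the regions. In the 200 bp around the centre of the Runx3 peak, 11 of 23 words were more frequent than in 1779 flanking windows 2000 bp away, and 1 was less frequent. The E-box CAGCTG stood in 27.4% of the regions, against 10.2% of flanks (odds ratio 3.33, 2.70 to 4.11, adjusted exact p = 1.21e-27). The GC box GGGCGG stood in 16.5%, against 4.27% (odds ratio 4.43, 3.32 to 5.92, adjusted exact p = 2.23e-24). The EBF word CCCNNGGG, bound by the early B-cell factors, which also act in neurons, stood in 16.1%, against 5.28% (odds ratio 3.44, 2.62 to 4.51). The RFX word stood in 3.70%, against 0.22% (odds ratio 17.0, 6.02 to 48.1). The CRE, TGACGTCA, bound by CREB-family factors, stood in 2.28%, against 0.17% (odds ratio 13.8, 4.11 to 46.5), and the CTCF word in 4.67%, against 0.06% or 1 flank (odds ratio 87.2, 12 to 634). Smaller differences were seen for the MEIS word TGACAG (20.4%, against 13.6% of flanks) and for the proneural E-box CAGATG (22.5%, against 17.0%). The GATA word AGATAA was less frequent (8.37%, against 11.7%, adjusted exact p = 0.019). No window of either kind held the REST word, 0 of 920 regions, which allows a share of up to 0.326% when 3 counts are taken as the limit of a count of 0.

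Base composition moved with these words, since the median GC content was 52.5% in the 200 bp windows of the regions and 46.0% in the flanks. Within strata of window GC content, an alternative added after seeing the data, CAGCTG (odds ratio 2.34), the GC box (1.80), EBF (1.92), RFX (15.8), CRE (9.39), CTCF (56.9), MEIS (1.46) and CAGATG (1.36) still passed, and the PBX and HOX word, at 1.11 without strata, passed there as higher than in flanks (1.93, chi-square, adjusted p = 0.0185). By the Mantel-Haenszel chi-square test NRF1 (7.20, adjusted p = 0.058), ETS (1.10, adjusted p = 0.837) and CACGTG (1.48, adjusted p = 0.163) did not, and the GATA word was at 1.05 (chi-square, adjusted p = 0.837). The CACC box CCACCC, at 1.15 without strata, was then lower than in flanks, at 0.63 (chi-square, adjusted p = 0.00053).

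**Figure D3:**
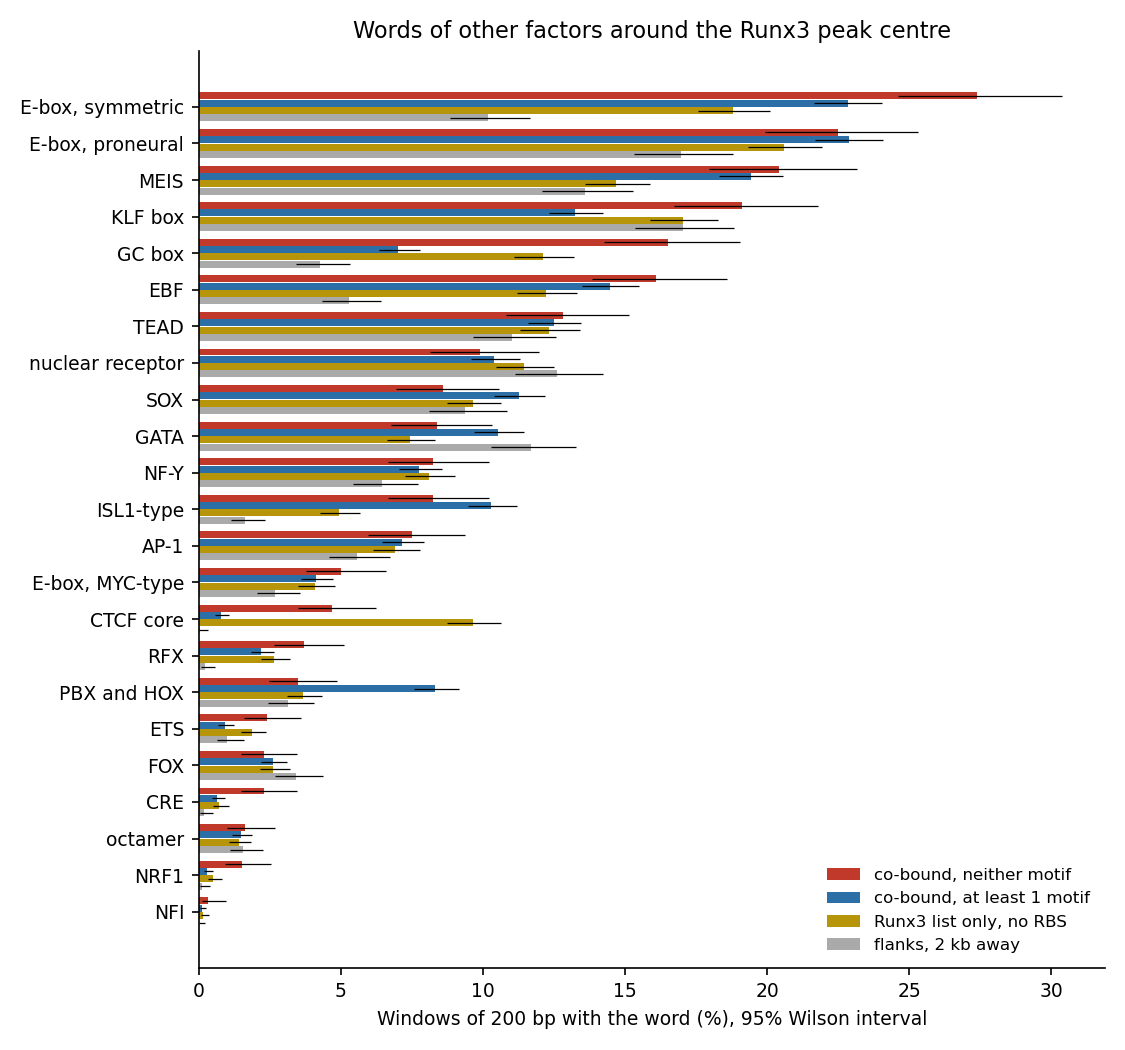
Share of 200 bp windows (x axis, percent, with 95% Wilson intervals) that held each word, for co-bound distal peaks with neither motif (red), those with at least 1 motif (blue), Runx3-list peaks without RBS and Brn3a (ochre) and flanks of the first class (grey). E-box, symmetric is CAGCTG, E-box, proneural is CAGATG, E-box, MYC-type is CACGTG, KLF box is CCACCC and ISL1-type is CCATTAG. The CTCF word stands out at 4.67% in red and 9.65% in ochre, against 0.78% in blue.

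Against the motif-bearing peaks, 8 of the 23 words were more frequent in the regions and 2 less frequent. The CTCF word was held by 43 of 920 regions (4.67%), against 37 of 4757 motif-bearing peaks (0.78%), an odds ratio of 6.25 (4.01 to 9.76, adjusted exact p = 6.55e-14). The NRF1 word stood at 1.52%, against 0.29% (odds ratio 5.24, 2.49 to 11), a call lost among wider Runx3 peaks (odds ratio 3.58, adjusted exact p = 0.0535). The CRE stood at 2.28%, against 0.65% (odds ratio 3.56, 2.04 to 6.23), the ETS word CCGGAAG at 2.39%, against 0.92% (odds ratio 2.62, 1.57 to 4.40), and the GC box, with the smallest p of the 23 words, at 16.5%, against 7.02% (odds ratio 2.62, 2.13 to 3.22, adjusted exact p = 3.70e-17). In contrast, the proneural E-box (22.5% and 22.9%), EBF (16.1% and 14.5%) and MEIS (20.4% and 19.4%) did not pass the test, with odds ratios of 0.98 (0.83 to 1.16), 1.13 (0.93 to 1.38) and 1.07 (0.89 to 1.27). CAGCTG passed (27.4%, against 22.8%, odds ratio 1.28, adjusted exact p = 0.0087) but stood at 0.99 within strata of peak width and GC content. The PBX and HOX word TGATTNAT was less frequent (3.48%, against 8.32%), but one form of it contains most letters of the Brn word, so this is in part set by the selection. By the Mantel-Haenszel chi-square test within the same strata the CTCF word (3.01, adjusted p = 9.07e-06), the GC box (1.65), the CRE (2.82) and NRF1 (2.84) still passed, and the ETS, RFX and CACC-box words did not.

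Set beside the Runx3-list peaks that lack Brn3a, the regions held fewer CTCF words. Among Runx3-list peaks without RBS and without Brn3a it was held by 9.65%, more than in the regions (odds ratio 0.46, 0.33 to 0.64, adjusted exact p = 5.40e-06), and among co-bound peaks with a RUNX site only by 1.59% (odds ratio 3.04, 1.74 to 5.31, adjusted p = 0.00054). Relative to the Runx3-list peaks without RBS and Brn3a, the regions were instead richer in CAGCTG (27.4%, against 18.8%, odds ratio 1.63, adjusted exact p = 4.21e-07), MEIS (20.4%, against 14.7%, odds ratio 1.49, adjusted p = 0.00033), EBF (16.1%, against 12.2%, odds ratio 1.38, adjusted p = 0.0099), the GC box (16.5%, against 12.1%, odds ratio 1.44, adjusted p = 0.0033) and the CRE (2.28%, against 0.73%, odds ratio 3.17, adjusted p = 0.0013). The NRF1 word also passed as higher (1.52%, against 0.51%, odds ratio 2.99, 1.49 to 5.98, adjusted exact p = 0.014). Against the peaks with a RUNX site only, which have the same median GC content in these windows (52.5%), CTCF was the only one of the 23 words to pass the test.

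Most of the words lay inside the peaks, whose median width of 159 bp fills much of the 200 bp window. The word nearest the centre lay at a median of 24.5 bp from it for CTCF, 28.0 bp for RFX and 23.5 bp for the CRE, and 90.7%, 97.1% and 95.2% of the regions with the word had it wholly inside the Runx3 peak. For CAGCTG, the GC box and EBF the median was between 35.5 and 37.5 bp. CCATTAG, the Isl1-type word described below, lay farther out, at a median of 48.5 bp and inside the peak in 56 of 76 regions (73.7%). The offset of words spread evenly over the window was not computed, and the order of these offsets was not tested. Regions with the CTCF word were narrower (median 131 bp, against 161 bp for the rest), less often intronic (32.6%, against 52.3%) and less often near another co-bound region (11.6%, against 23.5%), values that were not tested. Of the 43 regions with the CTCF word, 3 also held CAGCTG, 4 a GC box and 1 CCATTAG.

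**Figure D4:**
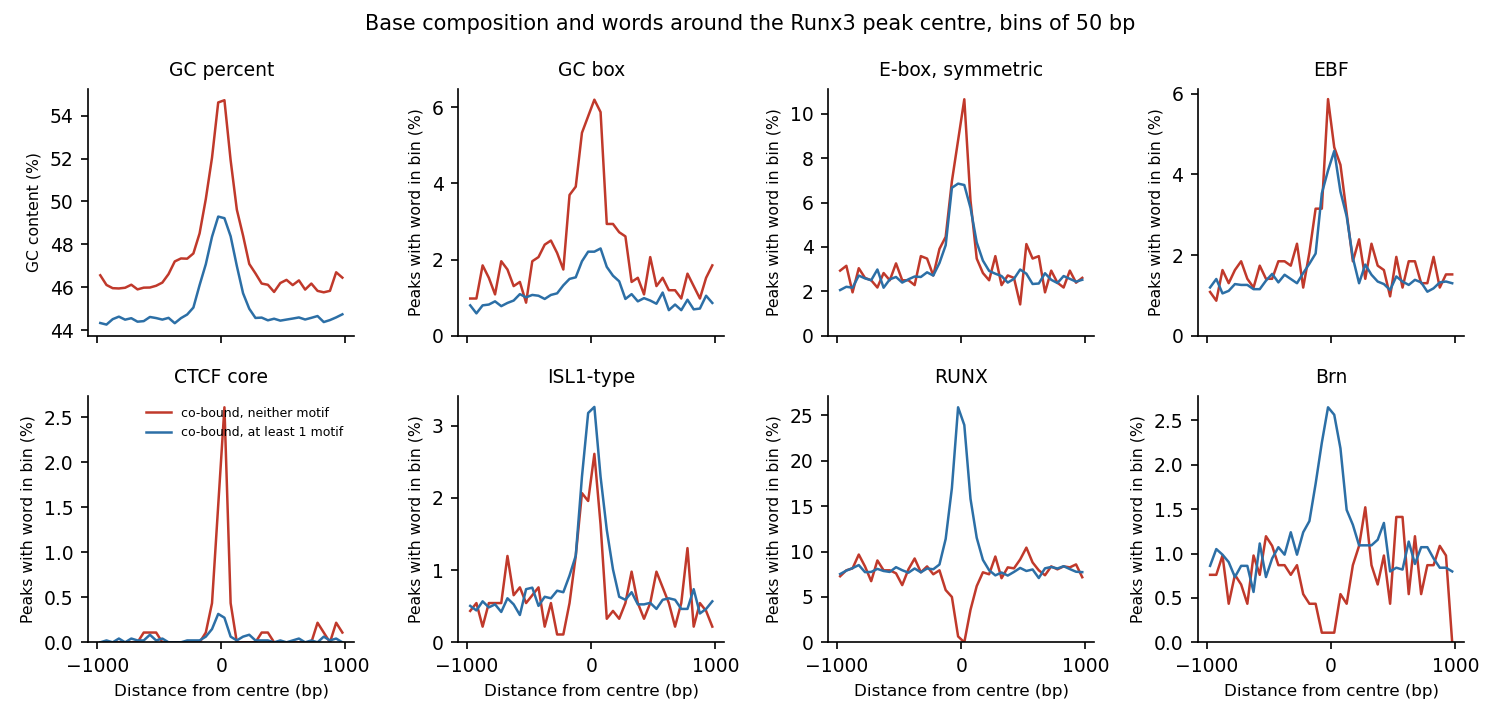
GC content and the share of peaks with each word in bins of 50 bp (y axes, percent) against distance from the Runx3 peak centre (x axis, bp), for co-bound distal peaks with neither motif (red) and with at least 1 motif (blue). E-box, symmetric is CAGCTG, ISL1-type is CCATTAG, RUNX is TGYGGY and Brn is TTAATGA; the dips of RUNX and Brn in red are set by the selection, while CAGCTG reaches 10.7% of red peaks in the bin at 25 bp and 3.48% in the bin at 125 bp.

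An open search over all words of 6 bases brought up a homeodomain word. Of 2080 words, each counted with its reverse complement, 534 (25.7%) were more frequent in the regions than in their flanks and 481 (23.1%) less frequent (adjusted p under 0.05), so that a call by itself says little. Within strata of window GC content 171 words were higher, 124 of them among the 534, and 150 were lower, 113 of them among the 481. The leading word was then CATTAG, in 17.6% of the regions and 6.24% of flanks (odds ratio within strata 4.66, Mantel-Haenszel chi-square, adjusted p = 6.93e-23), followed by CCATTA (19.8% and 8.04%, odds ratio 3.91). They overlap in CCATTAG, the type of word bound by Isl1. This longer word, picked from the search and so not tested again, stood in 8.26% of the regions (6.65% to 10.2%), in 1.63% of flanks (1.14% to 2.33%), in 10.3% of motif-bearing peaks and in 4.93% of Runx3-list peaks without RBS and Brn3a (4.28% to 5.68%).

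Other leading words within the GC strata were GGCAAC (15.3% and 6.07%) and CGTTGC (6.41% and 1.18%), parts of RFX sites, ATGGCG (6.74% and 1.63%), the core of the YY1 site, and CACTTA (15.8% and 9.44%). Among words lower than in flanks, ACCACA (2.83% and 14.0%) and GCCACA (3.8% and 11.9%) are forms of the RUNX word, which the selection removed. Next were CAGGTA (2.28% and 9.22%, odds ratio 0.23, adjusted p = 5.76e-09) and CACCTG (10.3% and 15.5%, odds ratio 0.43, adjusted p = 2.59e-07, chi-square tests within strata), the E2-box words bound by repressors of the ZEB and SNAI families, which the selection did not use. The flanks were not matched to the regions for repeat content, and its part in these differences was not tested.

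The words were spread unevenly over the distances from genes. The GC box stood in 21 of 58 regions at 1 to 2 kb from a protein-coding TSS (36.2%), in 22.9% at 2 to 10 kb, in 15.5% at 10 to 100 kb and in 7.73% beyond 100 kb, and the median GC content of the peaks ran from 58.8% to 55.9%, 54.5% and 51.0% over the same distances. CCATTAG ran the other way, in 0 of 58, 8.24%, 7.23% and 13.4%. CAGCTG and EBF showed no such order (20.7%, 30.0%, 28.9% and 23.2% for CAGCTG, and 15.5%, 17.1%, 16.1% and 15.5% for EBF). The CTCF word was held by 6.90%, 5.29%, 5.22% and 2.06%. These strata were not tested. Regions with a GC box also more often had a noncoding transcript start within 1 kb, in 23.0%, against 9.90% of regions without one.

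Of the 11 words that were more frequent than in flanks, 250 regions (27.2%) held none, 341 held 1, 220 held 2, 91 held 3, 17 held 4 and 1 held 5. These words were picked as higher in the same regions, and the count was not made for flanks or motif-bearing peaks. Single words of the set were also frequent in flanks, with CAGATG in 17.0% and the MEIS word in 13.6%. CAGCTG and MEIS stood together in 60 regions, and CAGCTG and EBF in 43. Both numbers are close to the products of the shares, 51.5 and 40.5. The GC box and the proneural E-box stood together in 16, under the 34.2 of the product.

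The regions were spread thinly over many genes. Regulatory domains (5 kb upstream and 1 kb downstream of the TSS, extended to the neighbouring genes by at most 1 Mb) of 1441 of 21853 protein-coding genes (6.59%) held at least 1 region, 198 genes had 2, 27 had 3, 6 had 4 and 1 had 6. Most regions (798) lay in the domains of more than 1 gene and were counted for each. The 10 genes with most regions were Gap43 with 6, Tlr5, Sdk2, Runx1, Myt1l, Usp25 and Gm11146 with 4 each, and Synpo, Ptma and Foxo6 with 3 each.

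Gap43, a growth-cone protein of extending axons, had 6 regions beside 8 motif-bearing peaks in a domain of 1562 kb. Of these 6, 1 lay in a Gap43 intron at 71.3 kb and held CAGCTG, RFX and MEIS words, and 1 lay 100 kb upstream (printed above). A neighbouring pair lay in an intron of Lsamp, whose TSS was nearer, and shared 1 Brn3a peak. The remaining 2 had a Zbtb20 TSS nearer than that of Gap43. Runx1, the RUNX TF of nociceptors, had 4 regions beside 11 motif-bearing peaks, 2 of them in its introns and 2 intergenic at 324 and 449 kb upstream. Myt1l, a zinc-finger TF of neuronal identity, had 4 beside 7. Sdk2, an adhesion molecule of synaptic layers, had 4 beside 8. The 4 regions of Usp25 and of Gm11146 were the same, and all lay in Mir99ahg, a noncoding host gene of miRNAs. Ptma and Foxo6 had 3 regions each and no motif-bearing peak, with the nearest regions 1.38 kb and 1.45 kb upstream of their TSSs.

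**Figure D5:**
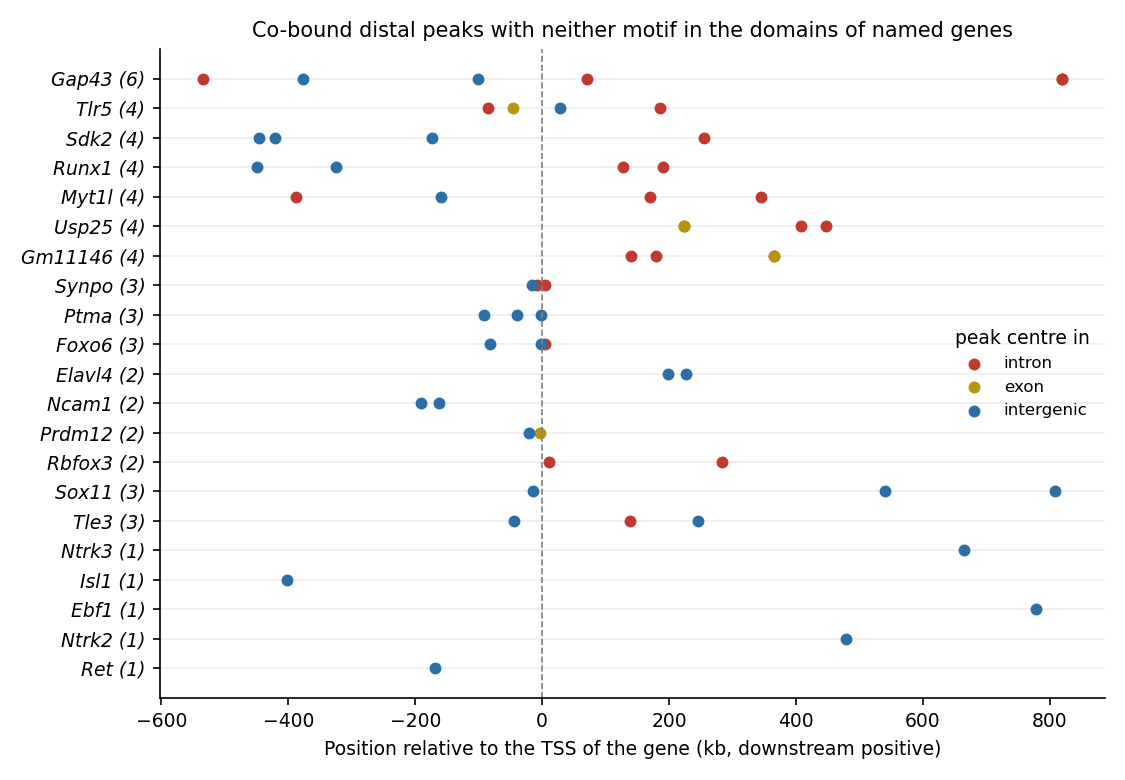
Position of each co-bound distal peak with neither motif relative to the TSS (x axis, kb, downstream positive) in the regulatory domains of the named genes, with the number per gene in brackets; colour shows whether the centre lay in an intron, an exon or intergenic DNA, and the close pairs of Gap43, Usp25 and Gm11146 overlap as 1 point. The points of Foxo6, Synpo, Ptma and Prdm12 lie within 92.1 kb of the TSS, while the single points of Ntrk3 and Ebf1 lie 665 and 779 kb downstream.

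Genes of the sensory neuron lists more often had a region than protein-coding genes in general, but they also had longer domains and more motif-bearing peaks. Of 32 sensory neuron TFs, 9 (28.1%) had at least 1 region, against 6.59% of all protein-coding genes, with median domains of 268 kb and 90.5 kb. The regions were 13.5% of the co-bound distal peaks in these domains, 15 beside 96 with a motif, and 16.4% over all genes. Per Mb of domain there were 0.885 regions for these TFs and 0.373 over all genes. Myt1l had 4, Sox11, a SOXC factor of differentiating neurons, had 3, and Prdm12, a regulator of the nociceptor lineage, had 2 beside 2 motif-bearing peaks in a domain of 92.1 kb. RUNX family members and cofactors had regions for 2 of 11 genes, Runx1 and the Groucho-family corepressor Tle3, with 7 regions beside 49 motif-bearing peaks. Tle3 had 3 regions beside 21 motif-bearing peaks.

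Proprioceptor genes had a region for 5 of 18 (Asic2, Cdh13, Kirrel3, Ntrk3 and Whrn, with 1 each), 11.1% of their co-bound distal peaks. Low-threshold mechanoreceptor genes had one for 3 of 12 (Maf, Ntrk2 and Ret, 7.5% of co-bound distal peaks). Nociceptor and thermoceptor genes had one for 3 of 13 (Runx1, Prdm12 and Scn9a), with 7 regions, 21.9% of their co-bound distal peaks, of which the 4 of Runx1 also count for the RUNX family list. Pan-neuronal genes had one for 4 of 18, namely Gap43, the RNA-binding proteins Elavl4 and Rbfox3 with 2 each, and the adhesion molecule Ncam1 with 2, together 12 regions beside 48 motif-bearing peaks. Axon guidance and adhesion genes had 1 region for each of 9 of 26 genes, 9.68% of co-bound distal peaks. Glial and neural crest genes had a region for 2 of 20 (Tfap2a and Tfap2b), 6.67% of co-bound distal peaks. Muscle and liver genes had one for 2 of 20 (Myf5 and Tnnt3), 2 regions beside 6 motif-bearing peaks, and immune genes for 0 of 20, beside 7 motif-bearing peaks. Per Mb of domain, nociceptor and thermoceptor genes had 1.88 regions, pan-neuronal genes 1.44, muscle and liver genes 0.985 and RUNX family genes 0.863. Proprioceptor genes had 0.479, against 0.373 over all genes. Lower values were those of axon guidance and adhesion (0.329), low-threshold mechanoreceptor (0.272), glial and neural crest (0.210) and immune genes (0). These counts and densities were not tested, since neighbouring genes share regions and the lists differ in domain length.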

How the data were processed

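Positions were taken from the consensus lists deposited by the authors, 1 per antibody, in which per the file headers a peak had to be found in at least 2 of the 3 Runx3 or 4 Brn3a libraries. The lists carry no height, score per peak or depth. Per the labels' processing notes the tools were cutadapt, Bowtie and MACS2 on GRCm38 (mm10); their versions, the calling thresholds and whether serum served as background are not given in the sources used here. Beside positions, the authors deposited an RBS score, which is the number of TGYGGY words per Runx3 peak (equal in 25883 of 25883 nuclear peaks), and a V$BRNF score for presence of the motif per Brn3a peak. The table deposited for H3K27Ac repeats the Runx3 positions and was not used. The members, gene lists and words were chosen with earlier results of these data known.

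Peaks were placed on GENCODE M21 and the GRCm38 sequence with scipy 1.17.1, pandas 2.3.3, numpy 2.4.6 and Python 3.11.15, strata being handled by statsmodels 0.14.6. Shares were compared by two-sided Fisher's exact tests with Benjamini-Hochberg adjustment over 44 positional tests, over 23 words jointly against motif-bearing peaks and flanks, jointly over the same words against the other 3 classes, over 4 tests of words beside peaks, and over 2080 words of 6 bases. Odds ratios carry Woolf 95% intervals (0.5 added to each count where a count was 0) and shares Wilson 95% intervals, and strata were combined by the Mantel-Haenszel chi-square test. Intervals cover counting error only. Word windows were 200 bp, flanks that touched a peak of either list were left out, and the word scan was tested on simulated data. The 1840 moved windows in the tests of words beside peaks were not filtered in this way and can touch other peaks. The simulated regions and flanks were random bases drawn with the same spread of GC content. The simulation therefore does not cover the difference in GC content between real regions and flanks. Named genes are the 10 with most regions in their domain (ties by shorter domain), list genes with 2 or more, and members of a list where counted. Alternatives are given in the closing section. No column of per-sample values was left unmapped.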

Additional observations from a re-analysis of the deposited data

How the results depend on the processing

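For libraries and their replicate numbers, no paired analysis was possible because the lists merge the replicates and carry no value per library. Each region could be matched to its own flanks, but the tests against flanks treated regions and flanks as unpaired sets. A matched test of regions and flanks was not run. TSS distance, noncoding starts, and the CTCF and GC box shares against motif-bearing peaks kept their direction and their call in each alternative run for them, with odds ratios of 1.51 to 2.26 within 10 kb, 0.44 to 0.68 beyond 100 kb, 1.71 to 2.33 for noncoding transcript starts, 3.01 to 6.53 for CTCF and 1.65 to 2.99 for the GC box. Under the alternatives, 80 of 93 odds ratios of the main comparisons kept direction and call, and 47 of 55 counts stayed within 1.5 times.

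With wider Runx3 peaks only, 384 regions were left, the odds ratio of a Runx3 neighbour with RBS passed at 1.32, that of a Brn3a neighbour with V$BRNF no longer passed at 0.82, and TTAATGA beside the peak stood at 0.95 against peaks with a RUNX site only. With 1 region per 10 kb these neighbour odds ratios were 1.22, which passed, and 0.90, which did not, and within strata of width and GC content 0.98 and 0.83, neither past the test. Within these strata 4 words were higher than in motif-bearing peaks and 1 lower, against 8 and 2 without, and the odds ratios were 0.99 for CAGCTG, 0.92 for EBF and 0.99 for MEIS. Also 1 word was lower with a distal limit of 2 kb and with 1 region per 10 kb. With no RUNX or Brn word in either peak, introns stood at 0.98, TGYGGY beside the peak at 0.91 against peaks with a Brn motif only and 0.77 against flanks, which passed, and TTAATGA at 0.99 against flanks; this setting itself bars TGYGGY from the part of the Brn3a peak outside the Runx3 peak. TGYGGY against flanks was 0.998 with the 2 kb limit and 0.89 with flanks at 5000 bp. In windows of 100 bp, 2 words were lower than in flanks and the proneural E-box stood at 1.03 against motif-bearing peaks. Strata of window GC content, chosen after seeing the data, left 171 six-base words higher and 150 lower, against 534 and 481, and put the CACC box at 0.63 against flanks. Among single words, calls against motif-bearing peaks were also lost for RFX with the 2 kb limit, wider peaks and strata (1.57 to 1.73), for NRF1 with wider peaks (3.58), for ETS and the CACC box within strata (1.83 and 1.11) and for CAGCTG with no RUNX or Brn word in either peak (1.19). Against flanks, ETS was lost with wider peaks (2.50), 100 bp windows (2.32) and GC strata (1.10), NRF1 with GC strata (7.20), while the CACC box passed as higher with wider peaks (1.43) and flanks at 5000 bp (1.47), and PBX and HOX with GC strata (1.93). Except where a setting's construction shows it, the cause was not tested.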
